A study of Mus musculus with 30 samples.

Results

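Transcripts of 9 drug-metabolising cytochrome P450 genes of the mouse Cyp2 and Cyp3a families were measured in fetal liver and fetal lung after maternal exposure to perfluorooctane sulfonate (PFOS), a persistent fluorinated surfactant. The set holds Cyp3a11, Cyp3a13, Cyp3a16, Cyp2b10, Cyp2c29, Cyp2c23, Cyp2c50, Cyp2c54 and Cyp2e1. They were chosen by name as xenobiotic-metabolising P450 enzymes, with earlier results of these data known. Por, the reductase that passes electrons to them, was also listed and is not analysed here. These 9 of 10 listed genes were read by 11 of the 45101 probe sets of an Affymetrix mouse array, on which 18193 genes had a probe set. Cyp2b10 had 3 probe sets and each of the other genes had 1. Each gene was represented by the brightest of its probe sets, judged by the mean of all 30 arrays.

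The dams were timed-pregnant CD-1 mice, an outbred stock, and they received PFOS as the potassium salt by gavage from gestation day 1 to 17. Doses were 0, 5 and 10 mg/kg/day, and the unexposed dams received the vehicle of all groups, 0.5% Tween 20. Fetal liver and lung were taken on gestation day 18, RNA of 3 fetuses of a litter was pooled, and each array is 1 litter. There were 5 litters for each tissue and dose, 30 arrays in all, and the labels do not state whether liver and lung came from the same litters. Tests measure the spread between litters, and litter numbers are used here as names of the arrays within a group. The comparisons ask whether these enzymes responded to PFOS in each fetal tissue and whether the tissues differed.

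Cytochrome P450 enzymes of these families are haem proteins of the endoplasmic reticulum that oxidise drugs, steroids and fatty acids. In liver, many of them are induced through the nuclear receptors CAR (gene Nr1i3) and PXR (gene Nr1i2), which pair with the retinoid X receptor RXR and bind repeats of a short DNA half-site. Cyp2b10 is the usual readout of CAR in mouse liver and Cyp3a11 that of PXR, while Cyp3a16 is a form of the fetal and newborn liver. Most of the enzymes are abundant in the hepatocytes of adult liver, and fetal liver is also a site of blood formation.

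The promoters of 4 of these genes are printed as a description. In liver Cyp3a11 changed with PFOS, whereas its close relative Cyp3a16 did not pass the test, and Cyp2c29 and Cyp2b10 changed at the higher dose. Whether these windows have a part in those changes was not tested. Each sequence runs 5′ to 3′ on the strand of its gene, from 250 bases before the annotated start to 50 bases after it, from RefSeq on GRCm38.p6. Capitals mark matches, on either strand, to the nuclear receptor half-site AGGTCA, its form AGTTCA, the element CAAAGTCCA of the type bound by HNF4A, and TATAAA.
Cyp3a11 (chr5:145879805-145880104, minus strand): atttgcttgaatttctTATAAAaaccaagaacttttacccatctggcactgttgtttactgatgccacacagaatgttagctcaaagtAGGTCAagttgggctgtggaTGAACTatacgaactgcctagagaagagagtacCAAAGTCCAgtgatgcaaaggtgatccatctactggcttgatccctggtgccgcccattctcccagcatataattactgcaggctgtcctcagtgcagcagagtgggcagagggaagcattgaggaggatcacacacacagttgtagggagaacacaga
Cyp3a16 (chr5:145469674-145469973, minus strand): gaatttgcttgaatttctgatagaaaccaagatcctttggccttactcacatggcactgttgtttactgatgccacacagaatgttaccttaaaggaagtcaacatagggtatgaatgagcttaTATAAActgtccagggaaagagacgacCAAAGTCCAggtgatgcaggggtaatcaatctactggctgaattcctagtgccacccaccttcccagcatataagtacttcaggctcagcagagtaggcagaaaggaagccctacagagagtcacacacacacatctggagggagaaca
Cyp2c29 (chr19:39286835-39287134, plus strand): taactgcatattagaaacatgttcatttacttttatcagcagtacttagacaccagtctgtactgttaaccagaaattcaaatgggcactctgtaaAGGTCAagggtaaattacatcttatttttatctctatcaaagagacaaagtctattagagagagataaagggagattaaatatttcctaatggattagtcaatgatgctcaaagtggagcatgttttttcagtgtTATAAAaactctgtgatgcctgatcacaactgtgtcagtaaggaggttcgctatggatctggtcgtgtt
Cyp2b10 (chr7:25897408-25897707, plus strand): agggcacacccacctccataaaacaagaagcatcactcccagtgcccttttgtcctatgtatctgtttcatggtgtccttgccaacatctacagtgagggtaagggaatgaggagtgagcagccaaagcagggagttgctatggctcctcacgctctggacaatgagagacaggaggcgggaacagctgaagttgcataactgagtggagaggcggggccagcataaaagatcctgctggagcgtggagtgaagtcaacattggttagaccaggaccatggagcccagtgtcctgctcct

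The Cyp3a11 and Cyp3a16 promoters were identical at 75.2% of 315 aligned columns, the highest of the pairs among the 7 genes with a promoter sequence, and the next Cyp3a pair, Cyp3a11 and Cyp3a13, at 57.4%. Both hold CAAAGTCCA, which occurs in 0.475% of 32851 promoters of the same length. AGGTCA, present in 16.3% of them, lies in the Cyp3a11 and Cyp2c29 windows, and AGTTCA, present in 14%, lies on the opposite strand of the Cyp3a11 window, where it reads TGAACT. The letters TATAAA occur in 13.6% and lie in the Cyp3a11, Cyp3a16 and Cyp2c29 windows, and the 300 bases of Cyp2b10 hold none of the 4 motifs. Direct repeats of AGTTCA with 3 or 4 bases between, and its everted repeat with 6 bases between, were searched on both strands and matched none of the 7 windows. Among the 32851 promoters they matched 0, 4 and 2, so their absence from 7 windows says little. Repeats that mix AGGTCA and AGTTCA were not searched. Overlapping matches were kept. These matches describe the letters of the windows alone.

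The liver arrays carried the transcripts that define hepatocytes. The mean log2 level of 11 hepatocyte markers was 12.91 to 13.08 on the 15 liver arrays, and that of 6 lung epithelium markers was 10.94 to 11.39 on the 15 lung arrays. Lung markers in liver lay between 4.28 and 4.99. Hepatocyte markers in lung lay between 7.62 and 9.81, and all 11 exceeded the 40th percentile of each of the 15 lung arrays. Some arrays stood apart. Lung litter 1 at 0 mg/kg/day and lung litter 1 at 5 mg/kg/day were high for most of the P450 genes, and liver control litters 2, 3 and 5 had 11.27, 9.50 and 8.20 for Cym, the stomach protease chymosin, against 5.05 and 5.28 in control litters 1 and 4. The calls of members in liver are also given without these control litters. Lung and between-tissue results of Cyp3a11 and Cyp2c29 are in part also given without these lung arrays. Both choices were made after seeing the data. Other results, among them those of the gene lists, are given with all arrays only. In tissue RNA, fewer cells of a type and less RNA per cell cannot be told apart.

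**Figure D1:**
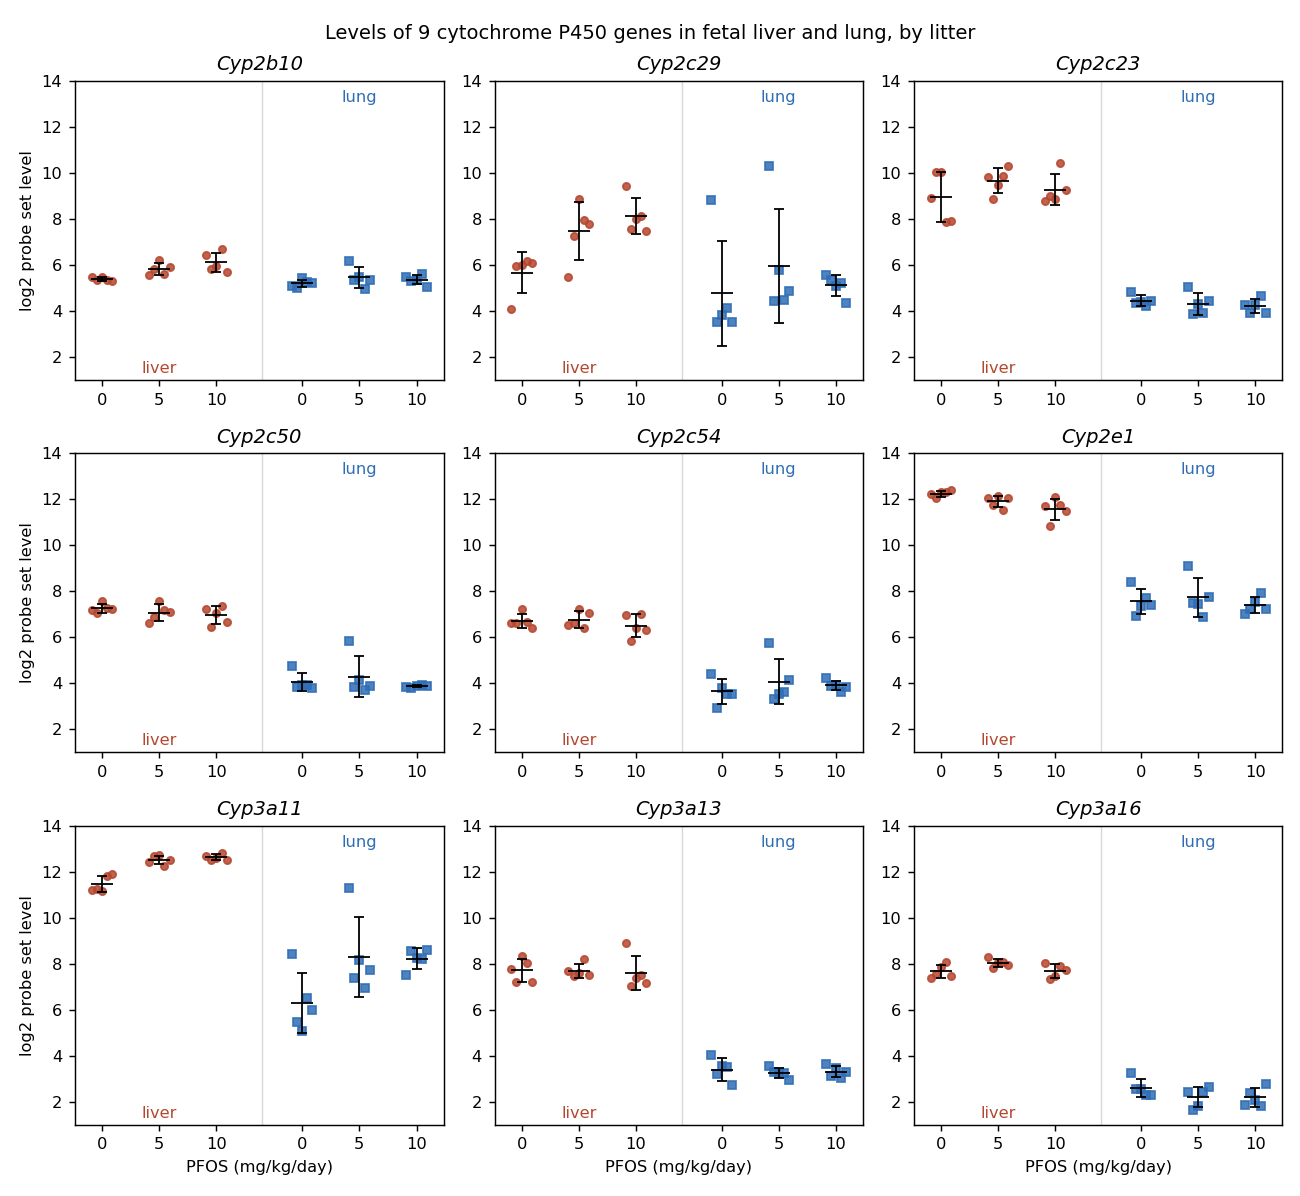
Log2 probe set level of the 9 P450 genes (y axis) by tissue and PFOS dose (x axis, 0, 5 and 10 mg/kg/day), with 1 circle per liver array, 1 square per lung array and bars for the mean and SD of 5 litters. For Cyp3a11 all exposed livers lie above all unexposed ones, and for Cyp2c29 all those at 10 mg/kg/day do. Cyp2e1 lies lower at 10 mg/kg/day, and litter 1 at 0 and 5 mg/kg/day stands above the other lung arrays for Cyp2c29.

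In fetal liver, Cyp3a11 rose at both doses, Cyp2b10 and Cyp2c29 rose at 10 mg/kg/day, Cyp2e1 fell at 10 mg/kg/day, and the other 5 genes did not pass the test. All 9 genes were bright enough to test in liver. At 5 mg/kg/day 1 of 9 was called at a limma adjusted p under 0.05, where 6.07% of 13269 genes were called in either direction. At 10 mg/kg/day 4 of 9 were called, 3 higher and 1 lower, where 10.5% of genes were called, 5.3% higher and 5.22% lower. Both doses were compared with the same 5 control litters, so the 2 comparisons are not independent. The genes were chosen with earlier results of these data known, so their counts beside all genes are a description only. The median change of the 9 genes was 0.37 at the lower and 0.02 at the higher dose, beside -0.01 and -0.02 over all genes tested.

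Cyp3a11, the main drug-oxidising Cyp3a enzyme of adult mouse liver, was already bright in unexposed fetal liver. Its log2 level was 11.20, 11.24, 11.19, 11.81 and 11.89 in the 5 unexposed livers, 12.43, 12.67, 12.73, 12.27 and 12.51 at 5 mg/kg/day, and 12.69, 12.53, 12.60, 12.83 and 12.52 at 10 mg/kg/day. Every exposed litter lay above every unexposed litter, and the exposed litters were spread over a narrower range than the controls. The rise was 1.06 on the log2 scale at 5 mg/kg/day (SE 0.14, 2.08-fold, limma adjusted p = 0.000186) and 1.17 at 10 mg/kg/day (SE 0.14, 2.25-fold, adjusted p = 3.71e-05), with 5 of 5 litters above the control mean at each dose. Leaving out 1 litter at a time kept both calls, with rises of 0.99 to 1.16 and of 1.10 to 1.27. In fits without control litters 2, 3 and 5, where 2.22% and 4.07% of genes were called, both calls remained. With liver and lung in 1 fit, which gives Cyp3a11 the wider spread of the lung arrays, they did not (adjusted p = 0.279 and 0.182).

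Cyp3a16, the relative with the similar promoter, had 7.40, 7.57, 7.85, 8.08 and 7.47 in unexposed livers, 8.30, 7.82, 8.07, 8.10 and 7.94 at 5 mg/kg/day and 8.04, 7.33, 7.47, 7.89 and 7.73 at 10 mg/kg/day. The groups overlapped throughout. Its change was 0.37 at 5 mg/kg/day (95% interval 0.06 to 0.68, limma adjusted p = 0.165) and 0.02 at 10 mg/kg/day (95% interval -0.29 to 0.33, adjusted p = 0.957). The interval at 10 mg/kg/day lies wholly below that of Cyp3a11 at the same dose, 0.87 to 1.46. Both are log2 changes of single probe sets, and the difference between the 2 genes was not tested.

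Cyp3a13, a Cyp3a enzyme of liver and intestine, had changes of -0.02 and -0.11 at 5 and 10 mg/kg/day (95% intervals -0.67 to 0.63 and -0.76 to 0.54). Its litters ran from 7.20 to 8.34 without PFOS, from 7.45 to 8.21 at 5 mg/kg/day and from 7.05 to 8.91 at 10 mg/kg/day, where litter 1 had the highest level. Of the other Cyp3a genes listed, 2 were measured. Cyp3a25 rose by 1.03 and 1.03 at 5 and 10 mg/kg/day (SE 0.24, limma adjusted p = 0.0171 and 0.0121), and Cyp3a44, the other one, had changes of 0.96 and 0.75 (adjusted p = 0.0586 and 0.11) with 5 of 5 litters above the control mean at each dose.

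Cyp2b10, the usual CAR target, was read by 3 probe sets, which differed in how bright they were without PFOS and in the size of the change. The probe set 1451787_at, the brightest and the one used for the gene, had 5.48, 5.34, 5.47, 5.33 and 5.32 in unexposed livers, 5.58, 5.83, 6.20, 5.62 and 5.91 at 5 mg/kg/day and 6.43, 5.81, 5.95, 6.68 and 5.68 at 10 mg/kg/day. Every exposed litter again lay above every control. With Cyp3a11 it made 2 of 9 genes higher without overlap at 5 mg/kg/day, where 4.84% of genes were. At 10 mg/kg/day 3 of 9 genes were, the third being Cyp2c29, where 4.63% of genes were. The change of Cyp2b10 was 0.44 at 5 mg/kg/day (SE 0.16, limma adjusted p = 0.137) and 0.72 at 10 mg/kg/day (SE 0.16, 1.65-fold, adjusted p = 0.00957).

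The other Cyp2b10 probe sets started lower and moved further. With 1425645_s_at, unexposed livers had 3.82, 3.43, 3.33, 3.68 and 3.36, those at 5 mg/kg/day 5.04, 5.35, 5.94, 4.40 and 5.12, and those at 10 mg/kg/day 6.33, 4.59, 5.51, 6.92 and 4.76. With 1422257_s_at, unexposed livers had 2.73, 2.96, 2.44, 2.61 and 2.83, those at 5 mg/kg/day 4.15, 4.08, 4.93, 3.36 and 3.94, and those at 10 mg/kg/day 5.30, 3.70, 4.88, 6.14 and 3.72. The litters of each dose kept clear of the controls on both, and on neither did any of the 5 unexposed livers exceed the 40th percentile of its array. In a fit of 45037 probe sets without a filter, 1425645_s_at rose by 1.65 and 2.10 at 5 and 10 mg/kg/day (limma adjusted p = 0.0224 and 0.00211). The probe set 1422257_s_at had 1.38 at the lower dose (adjusted p = 0.074) and a rise of 2.03 at the higher (adjusted p = 0.00375). In that fit 1 of the 3 Cyp2b10 probe sets was called at 5 mg/kg/day and 3 of 3 at 10 mg/kg/day, where 2.12% and 3.67% of probe sets were called. With the 3 averaged, the Cyp2b10 rise at the lower dose was 1.15 (adjusted p = 0.0314, with 5.59% of genes called), a call that the brightest probe set alone did not give.

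At 10 mg/kg/day, litters 4 and 1 were the highest on all 3 Cyp2b10 probe sets, and litters 2 and 5 were the lowest pair on each. Probe sets of this family can share sequence with close paralogs such as Cyp2b9, and which paralogs these read was not tested. Cyp2b9, another Cyp2b enzyme, had changes of 0.54 and 0.28 (limma adjusted p = 0.285 and 0.591). When control litters 2, 3 and 5 were left out, the higher dose gave Cyp2b10 a change of 0.70, which did not pass (adjusted p = 0.147), in a fit with 2 controls.

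**Figure D2:**
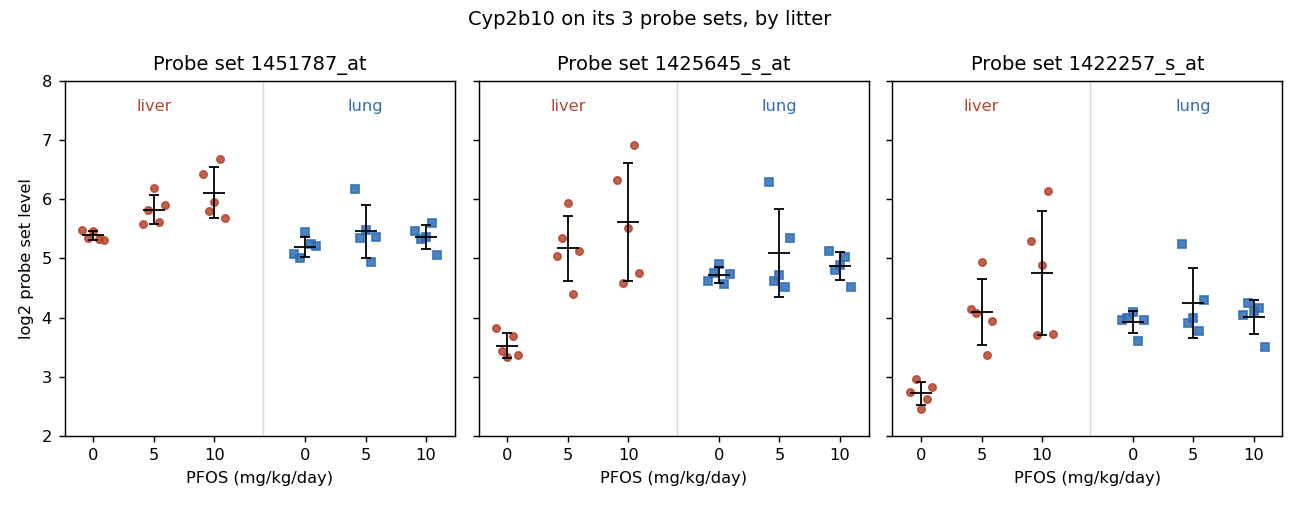
Log2 level (y axis) on each of the 3 Cyp2b10 probe sets by tissue and PFOS dose (x axis, mg/kg/day), with 1 symbol per litter and bars for the mean and SD of 5 litters. On each probe set all exposed livers lie above all unexposed livers, and on the 2 dimmer ones unexposed lung lies above unexposed liver.

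Cyp2c29, a CAR-inducible enzyme that also makes epoxides of arachidonic acid, had the largest liver change of the 9 genes at both doses. Its level was 4.11, 5.95, 5.99, 6.18 and 6.11 in unexposed livers, 5.46, 7.28, 8.85, 7.95 and 7.79 at 5 mg/kg/day and 9.43, 7.57, 7.98, 8.11 and 7.48 at 10 mg/kg/day. Litter 1 lay well below the other litters at 0 and at 5 mg/kg/day and was the highest at 10 mg/kg/day. All litters at 10 mg/kg/day lay above all controls, and at 5 mg/kg/day litter 1 was the exception. The change was 1.80 at 5 mg/kg/day (SE 0.55, limma adjusted p = 0.0655, 4 of 5 litters above the control mean) and 2.45 at 10 mg/kg/day (SE 0.55, 5.46-fold, adjusted p = 0.00852, 5 of 5). Without litter 1 at 5 mg/kg/day the change at that dose was 2.30 and passed (adjusted p = 0.0087). Without control litters 2, 3 and 5 the change at 10 mg/kg/day was 2.97 and the call was lost (adjusted p = 0.0511), as it was with liver and lung in 1 fit (adjusted p = 0.0808).

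The other Cyp2c genes of the set, epoxygenases of fatty acids, did not pass at either dose. Cyp2c genes outside the set are given below. Cyp2c23 had 8.89, 10.05, 10.02, 7.85 and 7.89 in unexposed livers, a range of over 2 on the log2 scale, against 8.87 to 10.31 at 5 mg/kg/day and 8.78 to 10.44 at 10 mg/kg/day. Its changes were 0.73 and 0.33 (SE 0.44, limma adjusted p = 0.398 and 0.72). Cyp2c50 had changes of -0.19 and -0.31 (95% intervals -0.59 to 0.20 and -0.70 to 0.09). Cyp2c54 had 0.06 and -0.20 (95% intervals -0.41 to 0.52 and -0.67 to 0.26). The litters of Cyp2c50 and Cyp2c54 overlapped between all doses, between 6.45 and 7.60 and between 5.84 and 7.23 in liver.

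Cyp2e1, which oxidises ethanol, acetone and other small molecules, was the one gene of the set that fell. Its level was 12.22, 12.05, 12.30, 12.30 and 12.39 in unexposed livers, 12.06, 11.76, 12.15, 11.53 and 12.05 at 5 mg/kg/day and 11.73, 10.85, 12.09, 11.74 and 11.48 at 10 mg/kg/day. All exposed litters were below the control mean, but the highest litters of both doses reached into the control range. The change was -0.34 at 5 mg/kg/day (SE 0.18, limma adjusted p = 0.308), and at 10 mg/kg/day the level fell by 0.68 (SE 0.18, 0.626 of the control level, adjusted p = 0.0232). The call at 10 mg/kg/day was lost without litter 5 of the controls (adjusted p = 0.0526), without litter 5 of the higher dose (adjusted p = 0.0518) and when control litters 2, 3 and 5 were left out (adjusted p = 0.184). It was also lost with liver and lung in 1 fit (adjusted p = 0.136).

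**Figure D3:**
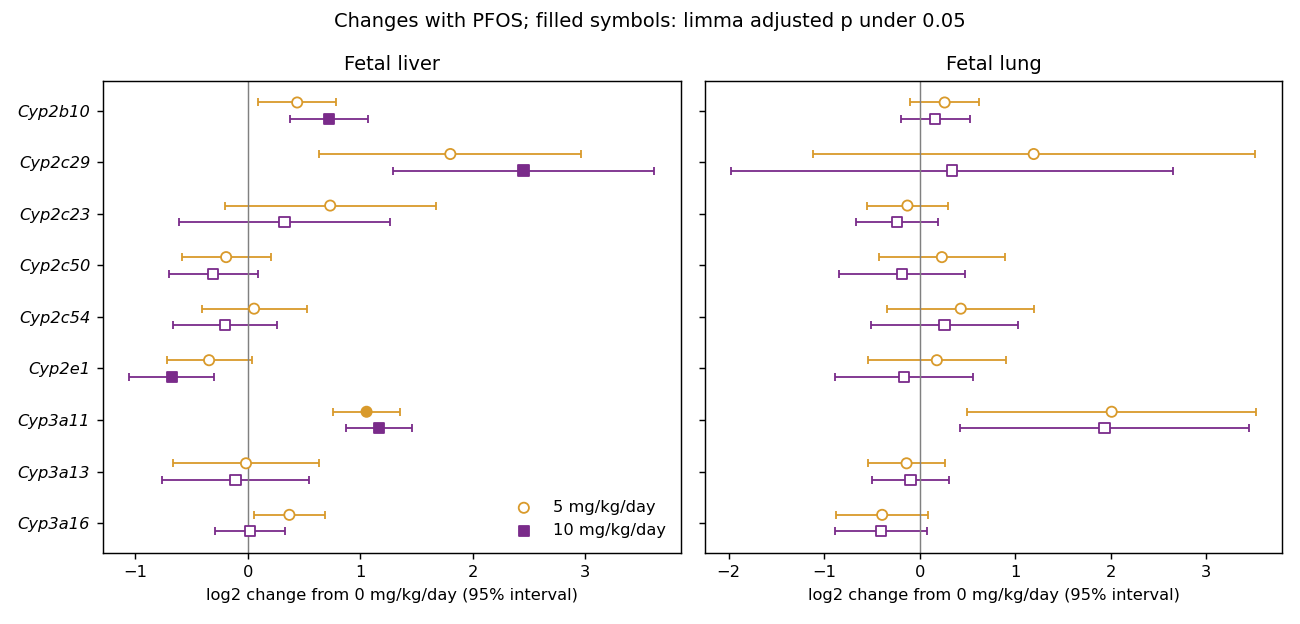
Log2 change from 0 mg/kg/day with its 95% interval (x axis) for the 9 genes (y axis) in liver (left) and lung (right), circles for 5 and squares for 10 mg/kg/day, filled where the limma adjusted p over all genes was under 0.05. In liver Cyp3a11 is filled at both doses and Cyp2b10, Cyp2c29 and Cyp2e1 at 10 mg/kg/day, and in lung no symbol is filled.

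Between the doses no member passed the test in liver. None of the 9 genes was called between 10 and 5 mg/kg/day, where 0.00754% of genes were called and 1035 of 13269 had an unadjusted p under 0.05, and none was called under any other setting tried. Cyp3a11 differed by 0.11 (95% interval -0.18 to 0.41), Cyp2b10 by 0.28 (-0.07 to 0.63) and Cyp2c29 by 0.65 (-0.51 to 1.81). Cyp2e1 differed by -0.33 (-0.71 to 0.05). Cyp3a16 had -0.35 (-0.66 to -0.04, limma adjusted p = 0.605), with 5 of 5 litters at 10 mg/kg/day below the mean at 5 mg/kg/day.

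Among marker transcripts in liver, hepatocyte markers kept a narrow range and erythroid markers were lower at 5 mg/kg/day. The mean level of 11 hepatocyte markers was 12.92 to 13.08 over unexposed livers, 12.96 to 13.00 at 5 mg/kg/day and 12.91 to 12.99 at 10 mg/kg/day. Of the 11 markers Ahsg and Apoa1 fell at 10 mg/kg/day (-0.18 and -0.17), where 5.22% of genes were called lower. The mean of 6 erythroid markers was 10.33 to 10.56 over unexposed livers, 10.07 to 10.25 at 5 mg/kg/day and 10.14 to 10.57 at 10 mg/kg/day, so that all litters at 5 mg/kg/day lay below all unexposed ones. Of the erythroid markers Hemgn and Klf1 fell at 5 mg/kg/day (-0.41 and -0.41), where 1.81% of genes were called lower. None was called at 10 mg/kg/day. The part of these shifts in the P450 changes was not tested.

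Without PFOS, 7 of the 9 genes were higher in liver than in lung. Liver and lung arrays were taken as independent here, since the labels do not pair them. In 1 fit of all 30 arrays, limma called 82.9% of genes between the tissues, 42.6% higher in unexposed liver, and the litters of the same 7 genes did not overlap, where 34.8% of genes were higher without overlap. Cyp3a11 was 5.17 higher on the log2 scale (adjusted p = 9.99e-10), Cyp3a16 5.08, Cyp2e1 4.69, Cyp2c23 4.49, Cyp3a13 4.31, Cyp2c50 3.21 and Cyp2c54 3.07, with 5 of 5 livers above the lung mean for each. In unexposed lung Cyp3a13 and Cyp3a16 were above the 40th percentile on none of the 5 arrays and Cyp2c50 and Cyp2c54 on 1 of 5, so the differences of these 4 genes are measured against a level near background and are no exact size.

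Cyp2b10 and Cyp2c29 were the exceptions. Cyp2b10 averaged 5.39 ± 0.08 in unexposed liver and 5.20 ± 0.17 in unexposed lung (SD, n = 5 each) on its brightest probe set, a difference of 0.19 (limma adjusted p = 0.315). On 1425645_s_at unexposed livers had 3.33 to 3.82 and unexposed lungs 4.57 to 4.91, and on 1422257_s_at livers had 2.44 to 2.96 and lungs 3.61 to 4.10, so that lung was higher without overlap. With the 3 probe sets averaged, liver was lower than lung by a log2 difference of -0.74 (adjusted p = 0.0154, with 82.2% of genes called). Cyp2c29 averaged 5.67 ± 0.88 in unexposed liver and 4.78 ± 2.29 in unexposed lung (SD, n = 5 each), a difference of 0.89 (adjusted p = 0.367). Without litter 1 of lung at 0 and 5 mg/kg/day it was 1.91 higher in liver (adjusted p = 0.00105, with 81.9% of genes called). These arrays were left out after their high Cyp2c29 levels were seen, so this call is a description only.

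Lung litter 1 at 5 mg/kg/day and lung litter 1 at 0 mg/kg/day each lay above all 13 other lung arrays for 7 of the 9 genes. The share of all genes for which they did so was not worked out. The count is therefore not shown to be particular to these genes. Cyp2c29 had 10.30 and 8.84 there, against 3.54 to 5.78 in the other lungs, 4.11 to 6.18 in unexposed livers and 4.11 to 9.43 over all 15 livers. The value at 5 mg/kg/day was thus above every liver measured. Cyp3a11 had 11.30 in litter 1 at 5 mg/kg/day, within the range of unexposed livers, 11.19 to 11.89. Cyp2e1 had 9.13 and 8.41 in the same arrays, against 6.89 to 7.95 in the other lungs and 10.85 to 12.39 in liver.

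Of the 11 hepatocyte markers, 5 lay above all other lung arrays in both of these, and 1 lay below them, all singled out after their values were seen. Alb, the gene of serum albumin, had 13.17 in litter 1 at 5 mg/kg/day and 13.11 in litter 1 at 0 mg/kg/day, against 11.22 to 12.52 in the other lungs and 13.82 to 13.89 in liver. The others that were high were Apoa1, Apoa2, Apob and Serpinc1, which encode plasma apolipoproteins and antithrombin. Afp, the gene of the fetal plasma protein alpha-fetoprotein, had 9.63 and 8.29, below all 13 other lung arrays, 9.91 to 11.74, and below all livers, 12.71 to 12.92. The mean of 11 hepatocyte markers was 9.81 and 9.45 in these arrays, against 7.62 to 9.42 in the other lungs. As a description over the 15 lung arrays after removing each dose mean, Cyp3a11 varied with the marker mean (Pearson r = 0.75, Spearman rho = 0.88). Cyp2e1 had r = 0.66 and rho = 0.78, and Cyp2c29 r = 0.50 and rho = 0.48. Cyp2b10 had r = 0.18 and rho = 0.03, and Cyp3a13 r = 0.17 and rho = 0.09. The part of the marker transcripts in the P450 levels of the 2 arrays was not tested.

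**Figure D4:**
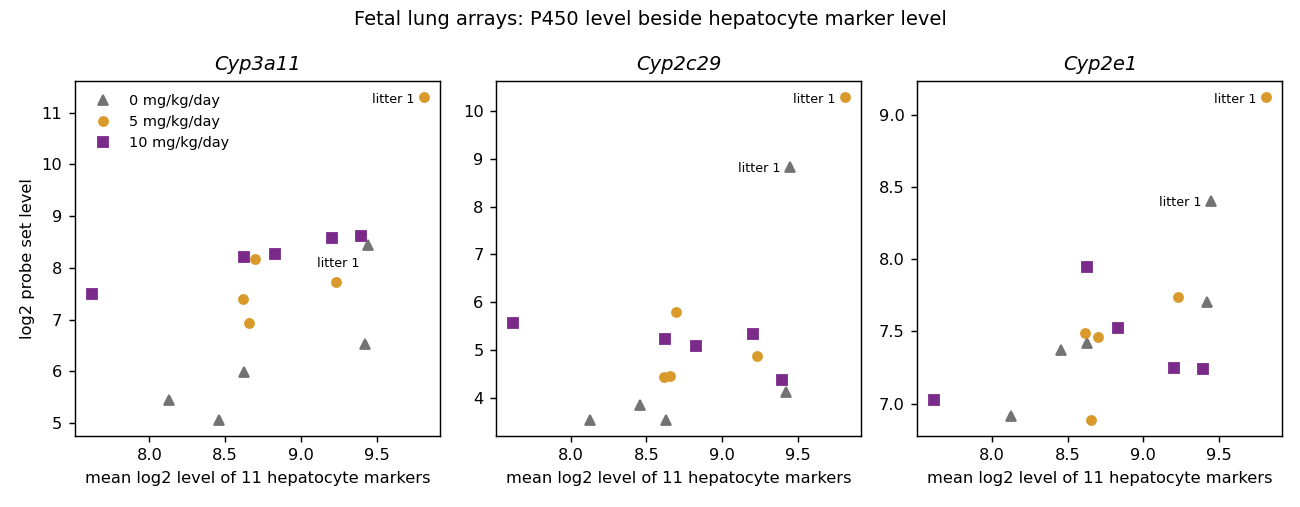
Log2 level of Cyp3a11, Cyp2c29 and Cyp2e1 (y axes) against the mean log2 level of 11 hepatocyte markers (x axes) on the 15 lung arrays, coloured by PFOS dose. Litter 1 at 5 mg/kg/day is the highest point in each panel, at 11.30 for Cyp3a11, 10.30 for Cyp2c29 and 9.13 for Cyp2e1, and it is also the lung array with the highest marker level, 9.81.

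In fetal lung no member passed the test with all arrays. Of the 9 genes 5 were bright enough to test, and none was called at 5 mg/kg/day, where limma called 0.0155% of 12897 genes and 596 had an unadjusted p under 0.05. None was called at 10 mg/kg/day, where 0.0543% were called and 891 had an unadjusted p under 0.05. The counts stayed at 0 when any 1 litter was left out. Cyp2c50, Cyp2c54, Cyp3a13 and Cyp3a16 were too dim to test.

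Of the 5 genes, Cyp3a11 had the largest lung change at each dose. Its level was 8.44, 5.45, 5.07, 6.53 and 5.99 in unexposed lungs, 11.30, 7.39, 8.18, 6.93 and 7.73 at 5 mg/kg/day and 7.49, 8.58, 8.26, 8.21 and 8.61 at 10 mg/kg/day. Apart from control litter 1, all unexposed lungs lay below all exposed ones. The change was 2.01 at 5 mg/kg/day (SE 0.71, limma adjusted p = 0.978) and 1.94 at 10 mg/kg/day (SE 0.71, adjusted p = 0.594), with 5 of 5 litters above the control mean at each dose. Without litter 1 at 0 and 5 mg/kg/day, the Cyp3a11 rise at the higher dose was 2.47 (adjusted p = 0.0047), as 1 of 5 lung genes called, 0.0388% of those tested, and its change at the lower dose was 1.80 (adjusted p = 0.229), where 0.00775% of genes were called. Control litter 1 was left out after its high P450 levels were seen, which by itself makes the change at the higher dose larger. The call without it is therefore a description only. With the hepatocyte marker level of each array as a covariate and all litters kept, the changes of Cyp3a11 were 1.71 and 2.06 (adjusted p = 0.672 and 0.223).

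Cyp2c29 in lung was 8.84, 3.54, 3.84, 4.12 and 3.54 without PFOS, 10.30, 4.44, 5.78, 4.46 and 4.87 at 5 mg/kg/day and 5.56, 5.33, 5.07, 5.23 and 4.36 at 10 mg/kg/day. Litter 1 carried the means of the unexposed and lower dose groups, with SDs of 2.29 and 2.48 against 0.45 at 10 mg/kg/day. The change was 1.19 at the lower dose and 0.33 at the higher (SE 1.09, limma adjusted p = 0.998 and 0.969). Without litter 1 at 0 and 5 mg/kg/day the changes were 1.13 and 1.35 (adjusted p = 0.724 and 0.248). In that subset Cyp2c29 and Cyp3a11, 2 of the 5 tested genes, were higher without overlap at each dose, where 1.61% of genes were at the lower and 1.06% at the higher. Control litter 1 was left out after its high levels of these P450 genes were seen. The lack of overlap follows in part from that choice, so the count beside all genes is a description only.

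The other lung genes overlapped between doses. Cyp2b10 on 1451787_at had 5.08, 5.00, 5.45, 5.25 and 5.21 in unexposed lungs, 6.17, 5.34, 5.49, 4.94 and 5.36 at 5 mg/kg/day and 5.47, 5.32, 5.36, 5.60 and 5.05 at 10 mg/kg/day, with changes of 0.26 and 0.16. Litter 1 at 5 mg/kg/day was the highest lung on all 3 Cyp2b10 probe sets, with 6.30 on 1425645_s_at and 5.24 on 1422257_s_at. None of the 3 Cyp2b10 probe sets was called in lung at either dose in the fit of all probe sets, where 0.00666% and 0.0133% were. Cyp2e1 averaged 7.56 ± 0.55 in unexposed lungs, 7.74 ± 0.83 at the lower dose and 7.40 ± 0.36 at the higher dose (SD, n = 5 each), and Cyp2c23 averaged 4.45 ± 0.23, 4.32 ± 0.48 and 4.21 ± 0.31 in the same order of doses. Of the 4 genes too dim to test, Cyp2c50 ran from 3.71 to 5.85 and Cyp2c54 from 2.94 to 5.78 over the 15 lungs, with litter 1 at 5 mg/kg/day highest for both. Cyp3a13 ran from 2.71 to 4.04 and Cyp3a16 from 1.63 to 3.25, with litter 1 at 0 mg/kg/day highest for both.

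The response was not shown to differ between the tissues. The liver change minus the lung change was called for none of the 9 genes at 5 mg/kg/day, where limma called 2.05% of 13879 genes and 1622 had an unadjusted p under 0.05, or at 10 mg/kg/day, where it called 3.88% and 2216 had an unadjusted p under 0.05. For Cyp3a11 the difference was -0.95 at 5 mg/kg/day (95% interval -2.53 to 0.62) and -0.77 at 10 mg/kg/day (-2.35 to 0.81). For Cyp2b10 it was 0.56 at 10 mg/kg/day (0.05 to 1.07, adjusted p = 0.257), and with the 3 probe sets averaged 1.48 (adjusted p = 0.0251, with 3.55% of genes called). Without lung litter 1 at 0 and 5 mg/kg/day the Cyp3a11 difference at 10 mg/kg/day was -1.30 (adjusted p = 0.0307, with 3.42% of genes called), the lung change being the larger on the log2 scale. Control litter 1 was left out after its high P450 levels were seen, which by itself enlarges the lung change. This call is therefore a description only. Cyp3a11 lay at the 99.7 to 99.9 percentile of the array in exposed livers. Whether such a high level limited its liver change was not tested.

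Among the receptors and the genes that serve these enzymes, Nr1i2, Cebpb, Alas1 and Cyb5b rose in liver at both doses. Nr1i2, the gene of PXR, had 5.91 to 6.31 in unexposed livers, 6.62 to 6.91 at 5 mg/kg/day and 6.62 to 7.24 at 10 mg/kg/day, with no overlap of exposed and unexposed litters. It rose by 0.67 and 0.83 at 5 and 10 mg/kg/day (SE 0.11, limma adjusted p = 0.00105 and 8.75e-05). Nr1i3, the gene of CAR, had 0.06 and -0.25 (adjusted p = 0.9 and 0.492), and Rxra, an RXR, had -0.10 and -0.10, both named after their values were seen. Of 11 receptors and transcription factors tested, 2 rose at each dose and none fell, the other being Cebpb, a liver transcription factor, by 0.36 and 0.56. Among all genes tested, 4.26% were called higher and 1.81% lower at 5 mg/kg/day, and 5.3% and 5.22% at 10 mg/kg/day. The median change of the 11 was -0.08 and -0.16, beside -0.01 and -0.02 over all genes tested. Of 7 genes of P450 electron transfer and haem supply, 2 rose at each dose and none fell, with a median change over the 7 of 0.02 and 0.0038. These were Alas1, which catalyses the first step of haem synthesis, by 0.43 and 0.47 (SE 0.07, adjusted p = 0.000855 and 0.000203), and Cyb5b, a cytochrome b5, by 0.47 and 0.50.

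Other genes of the Cyp2 family moved in both directions. Of 28 with a probe set, 16 were bright enough to test in liver. Among these 16, the lower dose gave 1 rise and 2 falls and the higher dose 1 rise and 4 falls, with a median change of 0.13 and 0.01. The balance leaves out the genes too dim to test. Among all genes tested, 4.26% were called higher and 1.81% lower at 5 mg/kg/day, and 5.3% and 5.22% at 10 mg/kg/day. Cyp2j5, an epoxygenase, rose by 0.80 and 0.88 (limma adjusted p = 0.00907 and 0.00284). Cyp2f2, known for naphthalene oxidation in the club cells of mouse lung, fell at both doses (log2 changes of -0.79 and -1.24, adjusted p = 0.0147 and 0.000258), and Cyp2c68 fell likewise (-0.41 and -0.58, adjusted p = 0.00111 and 2.31e-05). Cyp2c37 had -0.80 at the lower dose (adjusted p = 0.0883) and fell by 0.89 at the higher (adjusted p = 0.0396). Cyp2c70, named after its value was seen, fell by 0.36 at 10 mg/kg/day.

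A list of conjugating, hydrolysing and transport genes known as CAR or PXR targets moved in both directions. Of 22 tested in liver, the lower dose gave 4 rises and 2 falls and the higher dose 8 rises and 2 falls, with a median change of 0.12 and 0.16. Over all genes tested, limma called 4.26% higher and 1.81% lower at 5 mg/kg/day, and 5.3% higher and 5.22% lower at 10 mg/kg/day, and the difference between the list and other genes was not tested. The aldehyde dehydrogenases Aldh1a7 (2.32 and 2.68) and Aldh1a1 (1.34 and 1.88) rose most. Ephx1, the microsomal epoxide hydrolase, rose by 1.23 and 1.48, and Gadd45b, a stress response gene that CAR induces, by 1.16 and 1.28, with limma adjusted p from 1.87e-06 to 0.000146. Gsta4, a glutathione transferase, fell at both doses (-0.55 and -0.58), as did Sult1a1, a phenol sulfotransferase (-0.36 and -0.57), both named after their values were seen. Of the 3 Cyp1 genes, targets of the aryl hydrocarbon receptor, 1 was bright enough to test in liver and was not called at either dose. In lung none of the tested genes of these lists was called at either dose.

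Among the livers, the members did not vary as 1 group. As a description over the 15 liver arrays after removing each dose mean, with arrays sharing platform and normalization, Cyp2b10 varied with Cyp2c54 (Pearson r = 0.83, Spearman rho = 0.84) and Cyp2c50 (r = 0.79, rho = 0.71). Cyp3a13 varied with Cyp3a16 (r = 0.67, rho = 0.66). Cyp3a11 followed Cyp2b10 and Cyp2c29 less closely (r = 0.33 and 0.40), and it ran opposite to Cyp2c23 (r = -0.58, rho = -0.55). Over 12726 genes compared in the same way, those most like Cyp2b10 were Ctla2a (r = 0.94), Tbpl1 (r = 0.89) and Cyp2b9 (r = 0.89). For Cyp2c29 they were Nt5dc1 (r = 0.89), Senp7 (r = 0.89) and Akr1c13 (r = 0.87). For Cyp3a11 they were Abcc4 (r = 0.89), Acot1 (r = 0.88) and Caprin1 (r = 0.86), and of these 9 genes Acot1, an acyl-CoA thioesterase, was the one that changed with PFOS, by 2.98 and 3.28. Each is among the highest of 12726 correlations over 15 arrays, so picking the highest can by itself give large values. Probe sets of Cyp2b10 can share sequence with Cyp2b9, and its part in their likeness was not tested.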

How the data were processed

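The deposited values are log2 probe set levels of 30 Affymetrix mouse arrays. The submitters' processing notes name RMA, and neither its version nor whether both tissues were normalized at once is given in the sources used here. Extracts passed an RNA integrity number of 8 or more (labels' protocols). Arrays of a group correlated at 0.990 to 0.995 across probe sets, and mean levels were 5.08 to 5.10. RMA compresses changes of dim probe sets, and the number of arrays limits the precision.

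Of 45101 probe sets, 34945 had 1 gene symbol in the platform annotation, 932 had several, 9160 had none listed and 64 were controls of the array maker. A gene entered a test if at least 5 arrays had it over their 40th percentile. Group means were fitted by limma 3.58.1 (R 4.3.3) with an empirical Bayes spread, on 15 arrays within a tissue (13269 genes in liver and 12897 in lung) and on 30 between tissues (13879 genes). Tests were two-sided, with Benjamini-Hochberg adjustment over all genes tested and calls under 0.05, and the fits were tested on simulated data. Promoters were searched in RefSeq's windows with biopython 1.88, and figures were drawn with matplotlib 3.10.9.

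The members and lists were chosen with earlier results of these data known. Genes were named by rule: all members, for each list up to 4 called genes by size of change at 10 mg/kg/day or else up to 2 with the smallest p, and the 3 genes most like Cyp2b10, Cyp2c29 and Cyp3a11. Alternatives were the filter, normalization, array weights, averaged probe sets, the spread model, the replicate block, a sex covariate, the samples in the fit, and leaving out litters. No scanner files were used, so background correction and scan batches were not varied.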

Additional observations from a re-analysis of the deposited data

Results flagged for a closer look

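Among 66 pairs of a probe set and a group of 5 litters, 10 held a litter set far apart from the other 4 by Dixon's criterion, which chance alone meets in about 1 in 20 groups. In lung litter 1 at 5 mg/kg/day, Cyp2c29 (10.30), Cyp2c50 (5.85) and Cyp3a11 (11.30) were so set apart, all high. In lung litter 1 at 0 mg/kg/day, Cyp2c29 (8.84), Cyp2c50 (4.77) and Cyp3a16 (3.25) were, again high. The log2 level of Cyp2b10 on 1422257_s_at was low in lung litter 5 at 10 mg/kg/day (3.51). In liver, Cyp2c29 was low in control litter 1 (4.11), Cyp2c54 was high in control litter 3 (7.23) and Cyp3a13 was high in litter 1 at 10 mg/kg/day (8.91).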

How the results depend on the processing

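Of 1556 results of single members under other settings, 1489 kept their direction and their side of the threshold, 9 lost a call, 11 gained one, 46 changed sign without a call and 1 reversed, which was Cyp2b10 in unexposed liver against unexposed lung with probe sets averaged (-0.74). At 5 mg/kg/day in liver, where 1 member was called, 2 were called with a stricter filter, array weights, averaged probe sets, a sex covariate or a fit of the 2 groups alone, and 0 when liver and lung shared 1 fit. The member gained was Cyp2b10 with averaged probe sets or the 2 groups alone (adjusted p = 0.0326 for the 2 groups alone) and Cyp2c29 with the others (0.0481 with the stricter filter, 0.0292 with array weights and 0.00684 with the sex covariate). At 10 mg/kg/day in liver, where 4 were called, 1 was with both tissues in 1 fit and 1 without control litters 2, 3 and 5. In lung at 10 mg/kg/day 1 was called without litter 1 at 0 and 5 mg/kg/day. The difference between tissues at 10 mg/kg/day had 1 call with averaged probe sets and 1 without lung litter 1 at 0 and 5 mg/kg/day. These lung arrays were left out after their P450 levels were seen, so calls without them are a description only. Leaving out 1 litter gave 1 to 2 members at 5 mg/kg/day and 3 to 4 at 10 mg/kg/day in liver, 7 to 8 between unexposed tissues, and 0 to 0 for 10 against 5 mg/kg/day in liver, for both doses in lung and for both differences between tissues. With the replicate number as a block (between tissues, the number within a dose), the counts were 1, 4 and 0 in the 3 liver comparisons, 0 at both doses in lung, 7 between tissues and 0 for both differences. Between doses the numbers did not pair the samples: deviations of arrays with the same number correlated at -0.137 to 0.132 in liver and -0.306 to 0.274 in lung. Between tissues, liver and lung arrays of the same dose and number correlated at -0.000766 to 0.296, over 0.1 in 11 of 15 pairs, and 13 of 15 livers correlated best with the lung of their own number, a hint from the data that the labels do not state. Each liver had the 5 lungs of its dose to match. The tests between tissues in the main text took liver and lung arrays as independent. The block changed no call of a member between tissues. The causes of the changed counts were not tested. The shares of all genes called are not given for the stricter filter, array weights, sex covariate, block, 2 groups alone, 1 fit or leaving out 1 litter. The counts of members under these settings are a description only. Signal limits the reading of dim members, since 4 of 9 were too dim to test in lung and 2 Cyp2b10 probe sets lay below the 40th percentile in all unexposed livers.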
